A study of Mus musculus with 20 samples.

Results

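The enzymes described here make the building blocks of RNA and DNA: Prps1, Prps2, Rrm1, Rrm2, Tyms, Tk1, Dut, Cad and Impdh2. These 9 genes, of 36724 in the deposited table, were chosen by their symbols, and all 9 passed the filter on low values. The set was proposed with earlier results of these data in view, in which Prps2 was among the genes of smallest p when Egfl7 knockout and wild-type hippocampal spheres were compared. The values of the knockout against wild-type comparisons in the hippocampus therefore took part in the choice and are given as a description. Results for regions and sphere rounds were known as well when the set was proposed.

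Neurospheres are floating clusters grown from neural stem and progenitor cells, here from untreated adult C57BL/6 mice of 8 to 12 weeks in medium with EGF and FGF. RNA sequencing was done on 20 libraries in 6 groups. Spheres of the subventricular zone (SVZ) came from the first sphere round at culture day 3, with 3 Egfl7 knockout and 3 wild-type libraries, all from male donors. First-round hippocampal spheres (HC1) were taken at day 5 from 3 male knockouts and 3 female wild types, so that genotype and sex cannot be told apart there. Second-round hippocampal spheres (HC2) were taken at day 5 from 4 knockouts and 4 wild types, all male. The labels name the donors as knockout or wild type without describing the allele. Neurosphere cultures hold stem cells and their progeny in proportions that were not measured.

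Nucleotides are built on phosphoribosyl pyrophosphate (PRPP), which PRPP synthetases make from ribose phosphate. Prps1 and Prps2 encode catalytic subunits of this enzyme, and Prpsap1 and Prpsap2 encode subunits associated with it. Cad carries the first steps of pyrimidine synthesis, and Impdh2 opens the branch from inosine to guanine nucleotides. Ribonucleotide reductase, with the large subunit Rrm1 and the S-phase small subunit Rrm2, turns ribonucleotides into deoxyribonucleotides. Tyms makes thymidylate, Tk1 recovers thymidine from outside the pathway, and Dut removes dUTP and supplies the substrate of Tyms. The genes of deoxyribonucleotide supply are known for their rise in dividing cells, while Rrm2b and Tk2 serve cells outside S phase and mitochondria.

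Prps1 and Prps2 both lie on chromosome X, and their promoters are shown because the balance of these close relatives turned over between the groups. That of Rrm2 is added as a gene tied to S phase. Each line holds 150 bases before the RefSeq start site on GRCm38.p6, 5′ to 3′, and capitals mark CCAAT. The start used for Prps2 lies inside the gene span of the deposited table, so its window overlaps that span.
Prps1, chrX:140456453-140456602, plus strand: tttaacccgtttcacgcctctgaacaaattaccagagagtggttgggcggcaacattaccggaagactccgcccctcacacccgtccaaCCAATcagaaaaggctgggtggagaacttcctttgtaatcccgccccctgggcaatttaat
Prps2, chrX:167382750-167382899, minus strand: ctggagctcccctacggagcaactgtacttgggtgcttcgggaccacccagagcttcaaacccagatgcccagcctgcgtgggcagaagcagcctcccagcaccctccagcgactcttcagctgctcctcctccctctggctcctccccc
Rrm2, chr12:24708104-24708253, plus strand: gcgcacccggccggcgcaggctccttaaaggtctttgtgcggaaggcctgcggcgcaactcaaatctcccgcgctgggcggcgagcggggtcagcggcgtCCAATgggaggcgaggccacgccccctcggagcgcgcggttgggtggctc

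Over the 250 bases before the start, CCAAT on either strand was found in 3 of the 9 genes, Rrm1, Rrm2 and Prps1, and in 33.8% of all 32851 promoter windows. In Prps1 it lay at bases -61 to -57 from the start, in Rrm2 at -50 to -46, and in Rrm1 at -91 to -87 and -45 to -41. The E-box CACGTG was found in Tyms and Impdh2, 2 of 9, and in 6.02% of all windows. The E2F words TTTCCCGC, TTTCGCGC, TTTGCCGC and TTTGGCGC were found in 0 of 9 and in 1.86% of all windows. TTTGAA or TTCGAA, the words of the cell cycle homology region, were found in Prps2 alone of the 9 and in 17.1% of all windows. As for Prps2, the windows of Impdh2, Dut and Cad overlap their gene spans in the deposited table, and the Impdh2 E-box lies inside its span. These letters describe the windows only.

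By Egfl7 itself, 2 SVZ libraries went against their labels. Egfl7 stood at 2.86 RPKM in the library labelled SVZ knockout 2 and at 0 in the one labelled SVZ wild type 3. The other SVZ knockouts had 0.094 and 0, the other SVZ wild types 1.73 and 2.99. All 7 hippocampal knockouts were listed at 0, and the hippocampal wild types had 0.566 to 1.59. RPKM are reads scaled for gene length and for library depth. From the value of 1 read in low, short receptor genes, depth was about 11.7 to 13.8 M reads in the first-round libraries and 17.8 to 31.2 M reads in HC2. Depth thus moved with the sphere round. All 10 neural stem and progenitor markers passed the filter, with summed levels of 6030 to 13600 RPKM over the libraries. Endothelial markers passed in 2 of 8 and summed to 0.561 to 8.3 RPKM, microglial markers in 2 of 8 and summed to 1.63 to 9, and blood markers in 1 of 5 and summed to 0.048 to 1.26. Oligodendrocyte lineage markers passed in 10 of 10 and summed to 632 to 1570 RPKM. Neuroblast and neuron markers passed in 10 of 10 and summed to 199 to 352. Ependymal markers passed in 4 of 5 (11.6 to 47.7 RPKM), and pericyte and fibroblast markers in 3 of 8 (18.9 to 72.2).

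All 9 enzymes were higher in SVZ spheres than in HC2 spheres, from 1.55-fold for Prps2 to 9.78-fold for Tk1 in the ratio of mean RPKM. All 9 passed limma at an adjusted p below 0.05, with a median log2 difference of 2.32 against 0.001 over all 16403 genes tested. On the same rule 34.7% of all genes were called higher in the SVZ. In 7 of the 9, all but Dut and Cad, every SVZ library lay above every HC2 library, as it did for 21.6% of all genes. Region, day in culture, round and sequencing depth all differ here and cannot be told apart. In bulk RNA, fewer cells of a type and less RNA per cell cannot be told apart either. The count was still 9 without both SVZ libraries that went against their labels, a setting chosen after seeing the data.

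**Figure D1:**
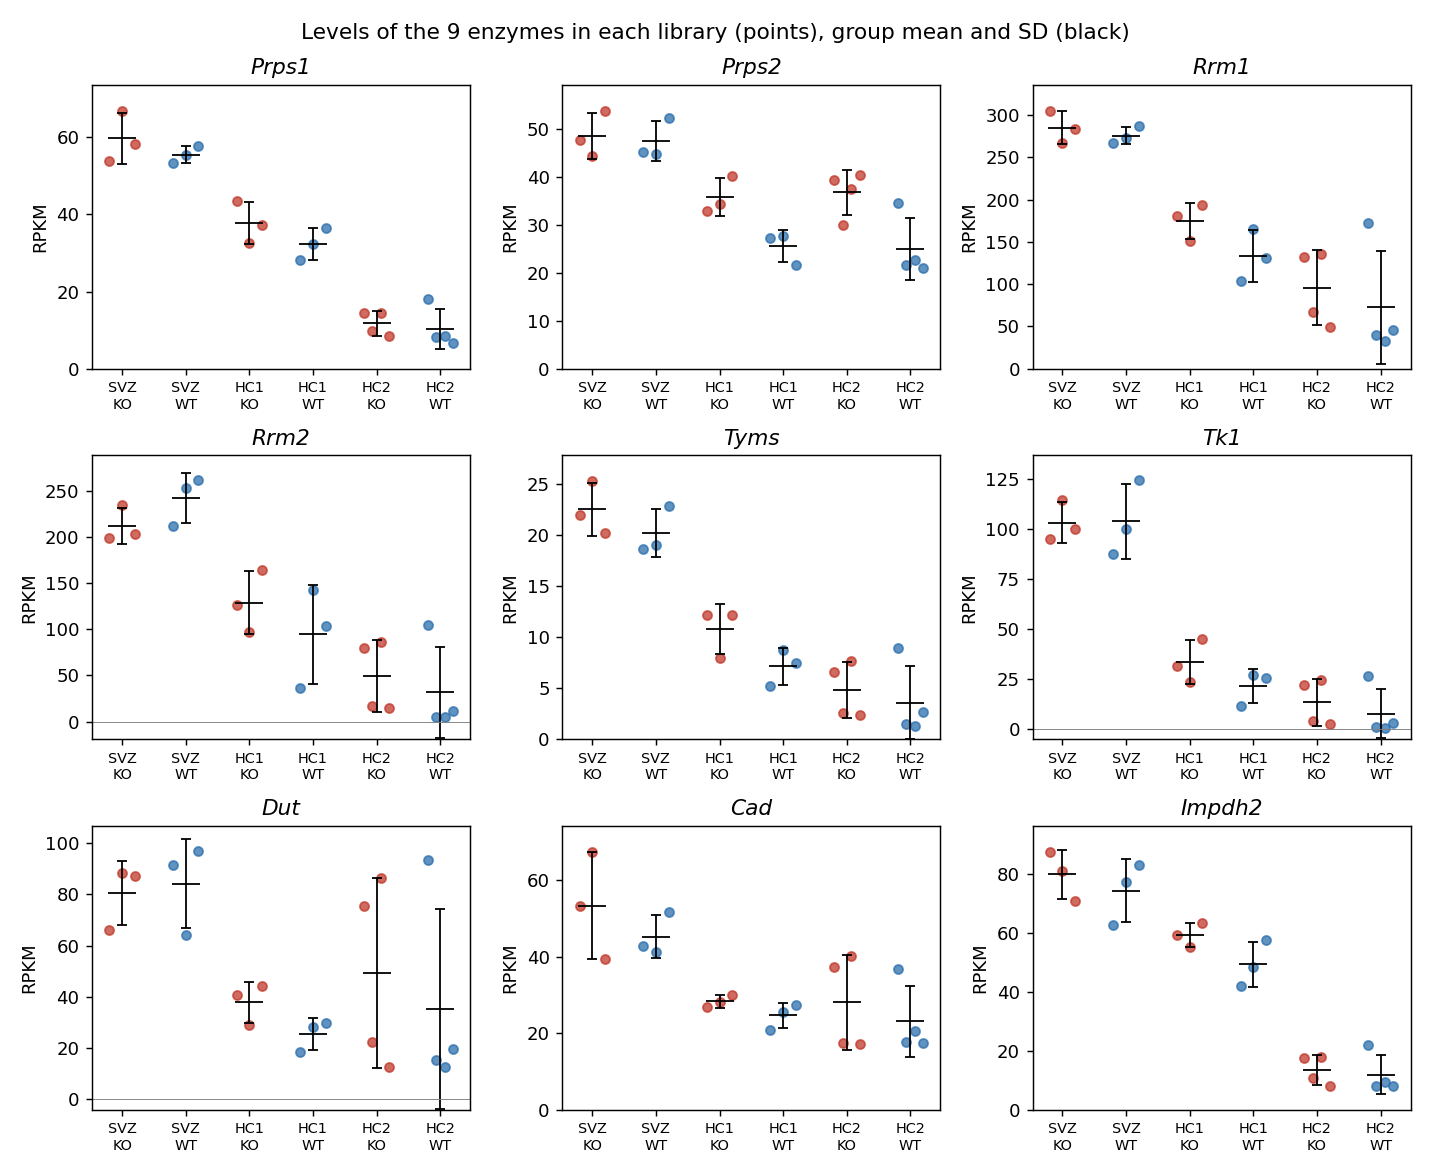
RPKM of each of the 9 enzymes (vertical axes) in each of the 20 libraries (points; red, knockout; blue, wild type), by group, with the group mean and SD in black. SVZ libraries lie highest for 7 enzymes without overlap with HC2, and HC2 libraries spread widely for Rrm1, Rrm2, Tyms, Tk1 and Dut.

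Of the PRPP synthetases, Prps1 (NCBI gene 19139, plus strand, chrX:140456603-140476140) differed most between groups. It had 53.2, 56.6 and 66.9 RPKM (lowest, median and highest) in the 6 SVZ libraries and 6.59, 9.06 and 18.0 in the 8 HC2 libraries. The means were 57.6 ± 4.97 (SD, n = 6) and 11 ± 4.04 (SD, n = 8), and the log2 difference was 2.35 (SE 0.17, limma adjusted p = 3.57e-09). HC1 lay between them without touching either group, at 43.4, 32.7 and 37.3 RPKM in its knockouts and 28.1, 32.3 and 36.6 in its wild types. Prps1 thus fell into 3 separate levels, by region together with day and by round, while the genotypes overlapped within each.

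Prps2 (NCBI gene 110639, minus strand, chrX:167346322-167383100) had a much narrower range. It had 44.3, 46.5 and 53.9 RPKM in the SVZ (lowest, median and highest) and 21.01, 32.3 and 40.5 in HC2. The means were 48.1 ± 4.08 (SD, n = 6) and 30.9 ± 8.19 (SD, n = 8), with a log2 difference of 0.66 (SE 0.11, limma adjusted p = 5.42e-05). In order of mean level, both SVZ groups stood first (48.6 ± 4.83 in knockouts and 47.5 ± 4.16 in wild types, SD, n = 3) and overlapped. The knockouts of HC2 (36.9 ± 4.70, SD, n = 4) and HC1 (35.9 ± 3.91, SD, n = 3) came next and overlapped. The wild types of HC1 (25.6 ± 3.34, SD, n = 3) and HC2 (25.0 ± 6.43, SD, n = 4) came last and overlapped. HC2 wild type 2, at 34.6 RPKM, lay above HC2 knockout 4 (30.0) and HC1 knockouts 1 and 2 (32.9 and 34.4). The hippocampal genotype values took part in choosing Prps2, and in HC1 sex differs along with genotype, so this order is a description.

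The balance of the 2 synthetases therefore turned over between SVZ and HC2. Prps2 ran at 0.664 to 0.925 times the level of Prps1 in the SVZ libraries, and at 1.92 to 4.76 times in HC2, with no overlap. The log2 ratio was 1.77 lower in the SVZ (difference -1.77; two-sided exact permutation p = 0.000816, the smallest that the 1225 arrangements allow; 0.00163 adjusted over 4 pairs). In HC1 the ratio was 0.759 to 1.08 in knockouts and 0.595 to 0.970 in wild types, below every HC2 library. A ratio within a library does not depend on how libraries are scaled. It shows unequal change of the pair, not that either stayed still.

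Other genes of PRPP synthesis did not follow 1 pattern. Prpsap2 had 32.7 to 39.0 RPKM in all first-round libraries, SVZ and HC1 alike, and 13.9 to 17.9 in HC2 (SVZ minus HC2 log2 1.13, SE 0.07, limma adjusted p = 2.44e-10). Prpsap1 had 45.3 to 64.7 RPKM over all libraries, with a log2 difference of -0.11 (SE 0.08, adjusted p = 0.226). Prps1l3, a gene close to Prps1 in sequence, differed by 0.75 (SE 0.12, adjusted p = 4.47e-05). Of the 50-base words in Prps1 transcripts, 9.93% also occur in Prps1l3, so reads could be split between them, and both levels carry that uncertainty. The testis-type copy Prps1l1 was listed at 0 in 18 of 20 libraries and did not pass the filter. Prps2 shares 0.105% of its words with other genes.

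**Figure D2:**
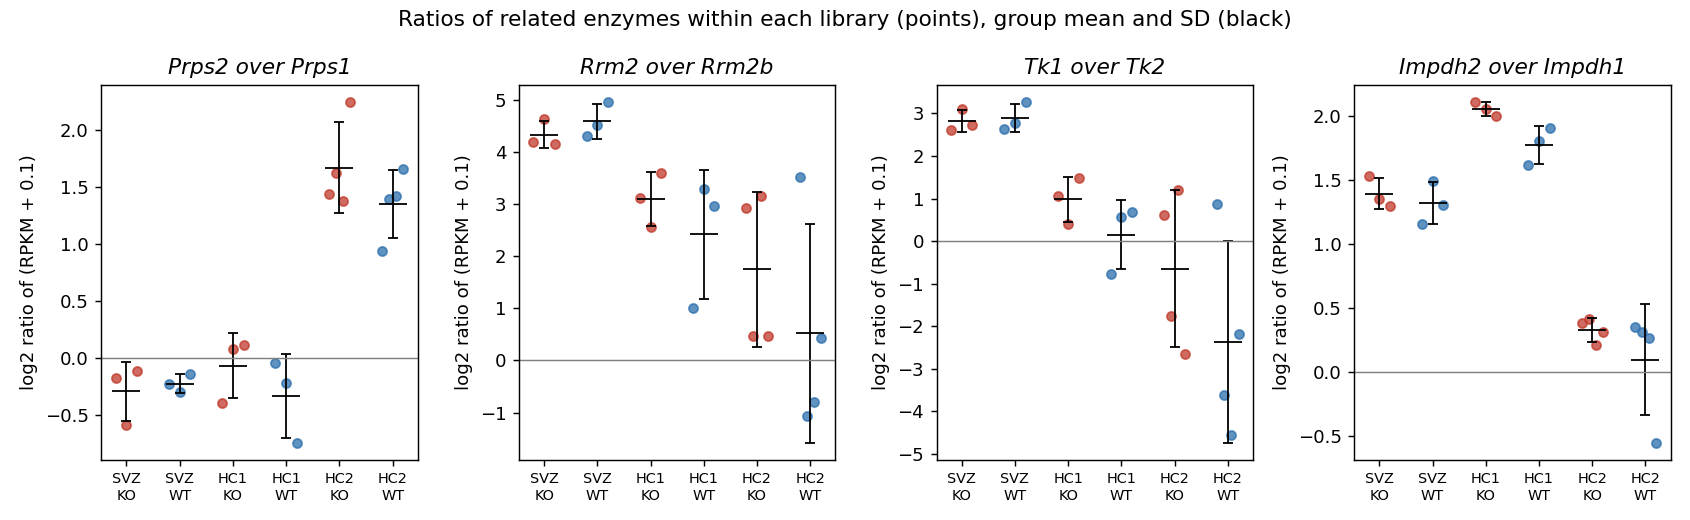
Log2 ratio of (RPKM + 0.1) of 4 pairs of related enzymes in each library (points; red, knockout; blue, wild type), by group, with mean and SD in black; the grey line marks equal levels. Prps2 over Prps1 lies at or below 0.113 in all SVZ and HC1 libraries and above 0.94 in all HC2 libraries, and the other 3 ratios are higher in the SVZ than in HC2.

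Of the enzymes of deoxyribonucleotide supply, Tk1 and Rrm2 had the largest fitted log2 differences of the 9 between SVZ and HC2. In the ratio of mean RPKM, Impdh2 (6.05-fold) lay above Rrm2 (5.61-fold). Tk1 (NCBI gene 21877, minus strand, chr11:117815509-117826014) had 87.4, 100.0 and 124 RPKM in the SVZ (lowest, median and highest) and 0.541, 3.63 and 26.4 in HC2. Its log2 difference was 3.95 (SE 0.56, limma adjusted p = 1.17e-05). HC1 held 31.4, 23.7 and 45.2 RPKM in knockouts and 11.8, 27.2 and 25.4 in wild types. HC1 thus overlapped with the 3 highest HC2 libraries and with no SVZ library.

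Rrm2 (NCBI gene 20135, plus strand, chr12:24708254-24714146) had 198, 223 and 262 RPKM in the SVZ and 4.70, 15.6 and 105 in HC2 (log2 3.28, SE 0.59, limma adjusted p = 0.000122). HC1 held 126, 96.6 and 164 RPKM in knockouts and 36.8, 143 and 103 in wild types. Rrm1 (NCBI gene 20133, plus strand, chr7:102441695-102469771) had 267, 278 and 305 RPKM in the SVZ and 32.7, 57.8 and 172 in HC2 (log2 1.98, SE 0.31, adjusted p = 3.06e-05). The reductase's S-phase subunit thus spread 22.3-fold over the HC2 libraries and its large subunit 5.27-fold.

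Tyms (NCBI gene 22171, minus strand, chr5:30058200-30073625) had 18.7, 21.1 and 25.3 RPKM in the SVZ and 1.28, 2.58 and 8.88 in HC2 (log2 2.32, SE 0.30, limma adjusted p = 3.57e-06). Dut (NCBI gene 110074, plus strand, chr2:125247248-125259049) had 64.4, 87.8 and 97.1 RPKM in the SVZ and 12.5, 20.96 and 93.6 in HC2 (log2 1.40, SE 0.44, adjusted p = 0.00984). For Dut the 3 highest HC2 libraries, at 75.4, 86.6 and 93.6 RPKM, lay within the SVZ range and above all HC1 libraries (18.2 to 44.2). Dut was in this the exception among the 5 enzymes of this step.

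The relatives that serve cells outside S phase did not pass the test. Rrm2b had 10.3 ± 1.13 RPKM in the SVZ (SD, n = 6) and 9.86 ± 1.22 in HC2 (SD, n = 8), with a log2 difference of 0.05 (SE 0.09, limma adjusted p = 0.625). Tk2 had 14.2 ± 0.995 and 14.5 ± 1.76 RPKM (log2 -0.02, SE 0.09, adjusted p = 0.845). Rrm2b was higher in HC1 than in HC2 knockouts, by 0.43 (SE 0.13, limma adjusted p = 0.0137). Rrm2 ran at 17.8 to 31.0 times Rrm2b in the SVZ and 0.477 to 11.4 times in HC2 (log2 ratio difference 3.32, exact permutation p = 0.00408, adjusted p = 0.00408). Tk1 ran at 6.14 to 9.63 times Tk2 in the SVZ and 0.0427 to 2.30 times in HC2 (log2 ratio difference 4.36, exact permutation p = 0.00245, adjusted p = 0.00327). In both pairs every SVZ library lay above every HC2 library.

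Of the enzymes of base synthesis, Impdh2 (NCBI gene 23918, plus strand, chr9:108560291-108565584) had 62.7, 79.3 and 87.6 RPKM in the SVZ and 7.97, 10.1 and 21.9 in HC2 (log2 2.60, SE 0.20, limma adjusted p = 9.91e-09). HC1 stood close to the SVZ, at 59.4, 55.3 and 63.5 RPKM in knockouts and 42.2, 48.4 and 57.5 in wild types. The HC1 knockouts overlapped with the SVZ wild types, and no HC1 library came near HC2. Of the 50-base words in Impdh2 transcripts, 39.3% also occur in the pseudogene Impdh2-ps, so part of its reads could have been assigned there.

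Its relative Impdh1 had 30.0 ± 2.37 RPKM in the SVZ (SD, n = 6) and 10.9 ± 4.24 in HC2 (SD, n = 8; log2 1.46, SE 0.19, limma adjusted p = 4.02e-06). In HC1, unlike Impdh2, Impdh1 was already down, at 14.3 ± 1.39 RPKM in knockouts and 14.3 ± 0.887 in wild types (SD, n = 3). The ratio of Impdh2 to Impdh1 was 2.23 to 2.88 in the SVZ, 3.06 to 4.31 in HC1 and 0.682 to 1.33 in HC2. Between SVZ and HC2 it differed by 1.14 on the log2 scale (exact permutation p = 0.000816, the smallest possible, adjusted p = 0.00163). Cad (NCBI gene 69719, plus strand, chr5:31054636-31078479) had 39.3, 47.3 and 67.5 RPKM in the SVZ and 17.1, 19.1 and 40.3 in HC2 (log2 0.99, SE 0.21, adjusted p = 0.00051). Its groups overlapped by 1 SVZ and 1 HC2 library.

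Proliferation markers moved with these levels, and their part in the differences was not tested beyond the covariate below. All 30 of 30 proliferation markers were higher in the SVZ than in HC2, with a median log2 difference of 2.71, and their sum was 3190 to 3660 RPKM in the SVZ, 802 to 2030 in HC1 and 121 to 1870 in HC2. All 10 of 10 markers of astrocytes and quiescent stem cells were lower in the SVZ, and summed to 701 to 1680, 2720 to 6190 and 3470 to 20600 RPKM. Both counts are limma calls, beside 34.7% of all genes called higher and 32.6% called lower in the SVZ. With the mean of the proliferation markers as a covariate, 5 of the 9 enzymes were called, as were 40.7% of all genes in either direction. That mean was 6.301 to 6.555 (log2) in the SVZ libraries and 1.73 to 5.542 in HC2, without overlap. The fit therefore extends its slope beyond levels that the groups share, which limits the values that follow. Prps1 (log2 1.57), Impdh2 (1.62), Tk1 (0.88) and Tyms (0.74) were higher in the SVZ and Dut was lower (-0.88, limma adjusted p = 0.00697). Prps2 had 0.34 (adjusted p = 0.0949), Rrm1 0.33 (0.0549), Rrm2 0.10 (0.708) and Cad 0.08 (0.804) in that fit.

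The sphere rounds were compared between HC1 and HC2 knockouts, which share region, day, sex and genotype. Depth differed with the round, at about 11.7 to 12.2 M reads in HC1 knockouts and 17.8 to 31.2 M in HC2 knockouts. Round and depth cannot be told apart here. Of the 9 enzymes, 3 were higher in the first round, and 22.3% of all genes were called higher there. Impdh2 differed by 2.12 (SE 0.29, limma adjusted p = 1.97e-05), Prps1 by 1.63 (SE 0.24, adjusted p = 4.62e-05) and Tyms by 1.14 (SE 0.42, adjusted p = 0.0411). The Tyms call did not hold in 8 alternative fits, among them without any 1 of HC1 knockouts 1 or 3 or HC2 knockouts 4 or 8 (adjusted p = 0.113 to 0.119). Rrm2 (1.76, SE 0.83, adjusted p = 0.106), Tk1 (1.70, SE 0.80, adjusted p = 0.103) and Rrm1 (0.98, SE 0.44, adjusted p = 0.0865) did not pass.

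For the other enzymes the fitted differences between the rounds were small. Prps2 had 32.9, 34.4 and 40.3 RPKM in HC1 knockouts and 39.3, 30.0, 37.6 and 40.5 in HC2 knockouts (log2 -0.03, SE 0.16, adjusted p = 0.883). Dut differed by 0.001 (SE 0.62), with 40.7, 28.9 and 44.2 RPKM in HC1 knockouts and 75.4, 22.5, 86.6 and 12.7 in HC2 knockouts. Cad differed by 0.12 (SE 0.30), with 26.8, 28.1 and 30.0 RPKM in HC1 knockouts and 37.4, 17.6, 40.3 and 17.1 in HC2 knockouts. For both, the HC2 knockouts lay above and below the HC1 knockouts and none within their range. The median over the 9 was 1.14, against 0.05 over all genes. With array weights, which give less weight to libraries far from their group, the count was 6, with Rrm1, Rrm2 and Tk1 added, and 45.6% of all genes were called in either direction. With the proliferation covariate it was 5 (40.9% of all genes), with Tk1 (0.40) added and Dut lower (-0.97, limma adjusted p = 0.0018).

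SVZ and HC1 knockouts were compared within the first round, at days 3 and 5. Region and day in culture differ together between them and cannot be told apart. All 9 differences were positive, with a median of 0.74 against -0.02 over all genes, but 0 of 9 passed limma, where 2.63% of all genes were called higher in the SVZ. All 30 of 30 proliferation markers were positive too (median 0.97, 0 called). Of the markers of astrocytes and quiescent stem cells 0 of 10 were (median -1.01), with 3 called lower, as were 726 of all 16403 genes. The part of both marker sets in these differences was not tested beyond the covariate fit, in which 2 of the 9 were called (8.27% of all genes). The covariate was 6.383 to 6.413 (log2) in SVZ knockouts and 5.198 to 5.64 in HC1 knockouts, again without overlap. At an unadjusted p under 0.05 there were 4: Cad (0.86, SE 0.32), Prps2 (0.43, SE 0.17), Prps1 (0.65, SE 0.26) and Tyms (1.01, SE 0.45). Tk1 had the largest difference (1.64, SE 0.85, limma adjusted p = 0.235), and its SVZ knockouts, at 95.1, 115 and 100.1 RPKM, lay far above the HC1 knockouts. The spread in this fit is shared by all groups, and that of HC2 is wide. The part of this in the count of 0 was not tested. That count was also 0 without any 1 of the compared libraries and with the replicate number as a block. In a fit on the SVZ and HC1 knockouts alone 9 of 9 were called (20.4% of all genes in either direction), with Tk1 at a limma adjusted p of 0.00852, and with array weights 7 were (31.0% of all genes). SVZ knockout 2, which went against its label by Egfl7, is in all of these fits. Without both SVZ libraries that went against their labels, a setting chosen after seeing the data, the fit on all groups called 0 of 9, and 281 genes in either direction. These comparisons share samples with those above, so they do not count as separate evidence.

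**Figure D3:**
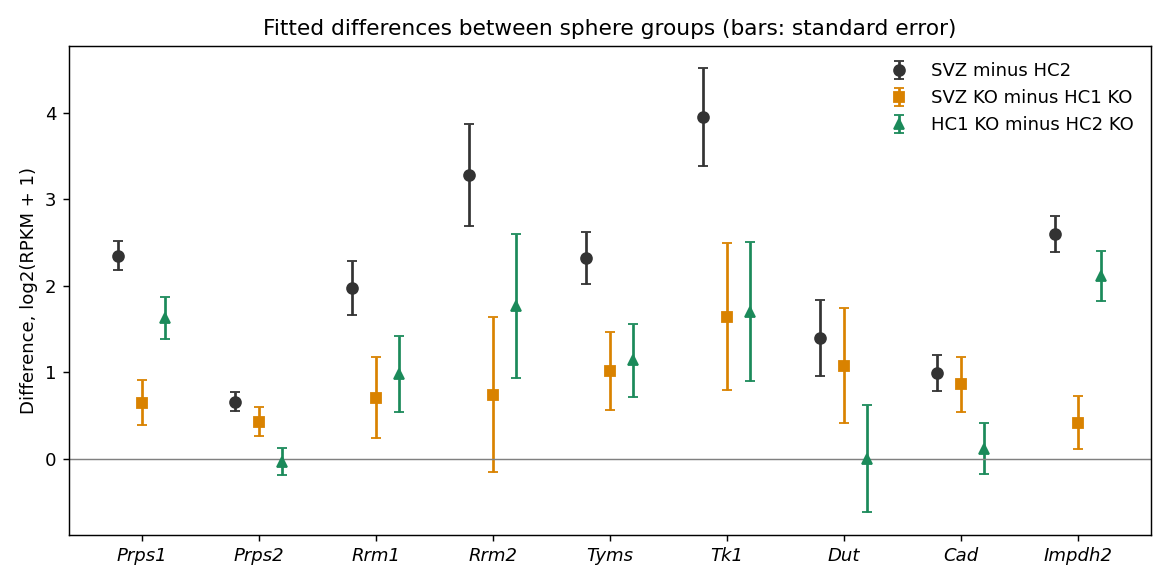
Fitted log2 differences of the 9 enzymes in 3 comparisons of sphere groups, with standard errors. SVZ minus HC2 lies above 0 for all 9, while HC1 knockout minus HC2 knockout lies near 0 for Prps2, Dut and Cad and at 1.63 and 2.12 for Prps1 and Impdh2.

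Within HC2 the libraries differed widely from each other under both genotypes. Mki67, a marker of cycling cells, had 52.6, 21.1, 56.2 and 12.2 RPKM in knockouts 1, 4, 7 and 8, and 68.5, 5.63, 1.04 and 15.0 in wild types 2, 3, 5 and 6. Tk1 had 22.0, 4.14, 24.7 and 2.60 RPKM in these knockouts and 26.4, 1.20, 0.541 and 3.13 in these wild types. Knockouts 1 and 7 and wild type 2 were thus high in both, and wild types 3 and 5 were the lowest. From lowest to highest HC2 library Tk1 spread 48.7-fold, Rrm2 22.3-fold, Dut 7.49-fold and Tyms 6.96-fold. Impdh2 spread 2.75-fold, Prps1 2.73-fold, Cad 2.35-fold and Prps2 1.93-fold.

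Over the 8 HC2 libraries, 7 of the 9 enzymes correlated with Mki67 on the log2(RPKM + 1) scale, by exact permutation over all pairings with adjustment over the 9. Of all kept genes but Mki67, 19.2% had a positive r at an unadjusted exact p under 0.05, as did 7 of the 9. With adjustment over all genes 7.65% passed, and 5 of the 9: Tk1, Rrm2, Rrm1, Tyms and Dut. Tk1 had r = 0.949 and rho = 1.0 (exact permutation p = 2.48e-05 and 4.96e-05, adjusted 0.000223 and 0.000446), and its order over the libraries was that of Mki67. Rrm2 had r = 0.936 and rho = 0.976, Rrm1 0.932 and 0.976, Tyms 0.928 and 0.976, and Dut 0.878 and 0.976, with adjusted exact p for r from 0.000223 to 0.00317 and for rho of 0.000714. Impdh2 had r = 0.789 and rho = 0.833 (exact permutation p = 0.0217 and 0.0154, adjusted 0.0325 and 0.0231). Prps1 had r = 0.762 and rho = 0.762 (exact permutation p = 0.0259 and 0.0368, adjusted 0.0333 and 0.0473). Both of these lost the call for r without 5 of the 8 libraries, each left out alone (adjusted exact p up to 0.1).

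Cad and Prps2 did not pass. Cad had r = 0.715 and rho = 0.548 (exact permutation p = 0.0548 and 0.171, adjusted 0.0617 and 0.192). Prps2 had r = 0.689 and rho = 0.405 (exact permutation p = 0.0622 and 0.327, adjusted 0.0622 and 0.327), and passed without HC2 knockout 8 (r = 0.825, adjusted exact p = 0.033). Its HC2 values took part in its choice by genotype, which can shape their order over the libraries. The coefficients of Prps2 are therefore a description, and nothing is read from its side of the threshold. That library had the highest Prps2 of HC2, 40.5 RPKM, at a Mki67 of 12.2. Without wild types 5 and 2, the 2 libraries farthest from the median of Mki67, r was 0.977 for Tk1, 0.936 for Impdh2, 0.880 for Cad, 0.850 for Prps1 and 0.650 for Prps2. Knockouts 1 and 7, the deepest and the shallowest library of HC2 at about 31.2 and 17.8 M reads, both had high Mki67.

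**Figure D4:**
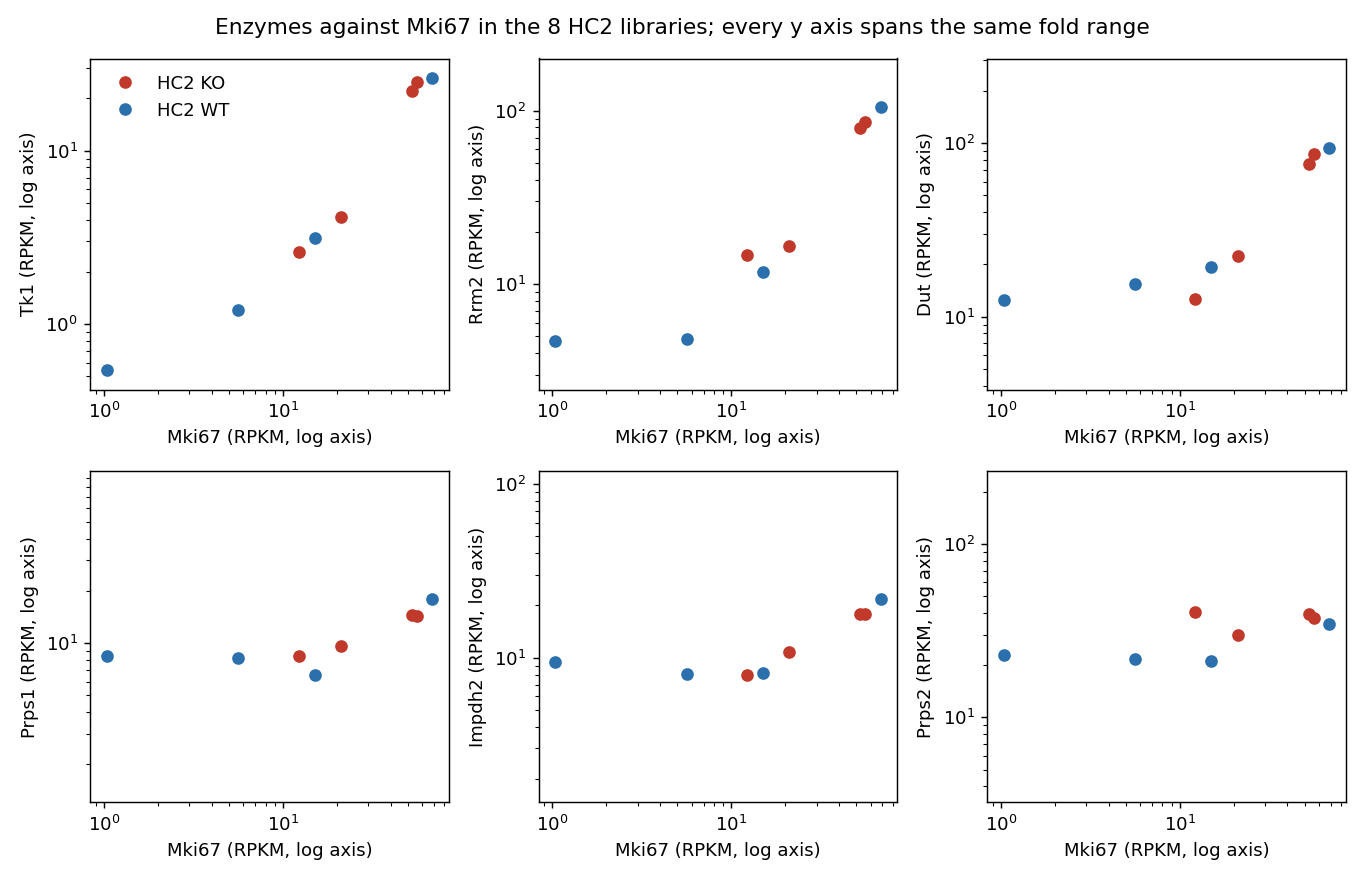
RPKM of 6 enzymes (vertical) against RPKM of Mki67 (horizontal) in the 8 HC2 libraries, both on log axes, with every vertical axis spanning the same fold range (red, knockout; blue, wild type). Tk1, Rrm2 and Dut climb with Mki67, Prps1 and Impdh2 climb less, and Prps2 climbs least evenly, with 40.5 RPKM in knockout 8 at a Mki67 of 12.2.

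Of 6 related genes over the same 8 libraries, 1 passed by rho and 0 by r. Impdh1 had rho = 0.881 (exact permutation p = 0.00724, adjusted 0.0435) and r = 0.778 (exact permutation p = 0.0243, adjusted 0.136 over 6 relatives), above the r of Prps1. The other values of r were 0.722 for Prps1l3 (exact permutation p = 0.0453, adjusted 0.136), 0.316 for Rrm2b, 0.178 for Prpsap2, -0.448 for Prpsap1 and -0.513 for Tk2. Over all 20 libraries after subtracting group means, Prps2 had r of 0.434 to 0.624 with the other 8 enzymes, and those 8 had 0.810 to 0.986 with each other. These 20 values share libraries, depth and spheres, so the coefficients are a description. The genes most like Prps2 by this measure were Cdh22, a cadherin (0.862), a gene listed as a date whose NCBI number, 18952, is that of Septin4 (0.824), Nek6, a mitotic kinase (0.818), Ufm1, a ubiquitin-like modifier (0.792), and Efcab7 (0.789). Those most like Rrm2 were Ncapg2, a condensin II subunit (0.994), Kifc1 (0.990), Brca1 (0.989), Mcm3 (0.989) and Lig1, a DNA ligase (0.989). Those most like Impdh2 were Vars, a valine tRNA synthetase (0.974), Ybx3 (0.973), Setdb1 (0.973), Tubb5 (0.972) and Pus7 (0.967).

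Around the 9 enzymes, the genes of de novo purine synthesis other than Impdh2 were higher in the SVZ than in HC2 in 8 of 9 kept and lower in 1. On the same rule 34.7% of all genes were called higher and 32.6% lower. Ppat, whose product commits PRPP to purines, differed by 1.17 (SE 0.18), and Pfas, of the same pathway, by -0.34 (SE 0.10, limma adjusted p = 0.00691). Of de novo pyrimidine synthesis other than Cad, 3 of 4 were higher, among them Umps (1.61, SE 0.28) and Ctps, which makes CTP (1.33, SE 0.24). Of deoxyribonucleotide production other than the 5 enzymes above, 4 of 7 were higher and 1 lower. Dck, the deoxycytidine kinase, differed by 1.38 (SE 0.15), and Dguok, the mitochondrial deoxyguanosine kinase, by -0.54 (SE 0.11).

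Other steps were mixed, beside 34.7% of all genes called higher and 32.6% called lower in the SVZ. Of 15 nucleoside mono- and diphosphate kinases, 8 were higher in the SVZ, with Nme2 (2.17, SE 0.19), and 5 lower, with Nme3 (-1.07, SE 0.12) and Ak5 (-0.98, SE 0.15). Of 14 salvage genes 7 were higher, with the nucleoside transporter Slc29a1 (1.96, SE 0.29) and Ada, adenosine deaminase (1.48, SE 0.17), and 2 lower, Tymp (-1.15, SE 0.15) and Uckl1 (-1.14, SE 0.14). Of 14 genes of nucleotide breakdown and control 7 were higher, with Itpa, which clears inosine triphosphate (2.43, SE 0.12), and Samhd1, which degrades deoxyribonucleotides (1.91, SE 0.13), and 3 lower, with Nt5m (-0.72, SE 0.08) and Nt5c (-0.34, SE 0.08). Of 15 folate genes 7 were higher, with Shmt1 (2.23, SE 0.45) and Mthfd2 (1.495, SE 0.46), and 2 lower, Aldh1l2 (-0.66, SE 0.18) and Mthfd2l (-0.31, SE 0.12).

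Of the E2F, Rb and Myc regulators, 16 of 19 were higher in the SVZ, with E2f8, a repressor of the E2F family (3.19, SE 0.37), and Foxm1, a mitotic regulator (3.06, SE 0.43), and 2 were lower, Mycl (-0.59, SE 0.23) and Rbl2 (-0.48, SE 0.12). Over all genes 34.7% were called higher and 32.6% lower in the SVZ. E2f1, E2f2, Foxm1 and Mybl2 are also among the proliferation markers above. Between HC1 and HC2 knockouts 8 of the 19 regulators were higher in HC1 and 0 lower, beside 22.3% of all genes called higher there. Among the 8 were E2f8 (2.07, SE 0.53) and Foxm1 (1.86, SE 0.61). In that comparison of rounds the largest called differences in the pathway lists included Itpa (2.03, SE 0.17), Nme2 (1.55, SE 0.27), Samhd1 (1.41, SE 0.18) and Prpsap2 (1.20, SE 0.10) upward. Tymp (-1.17, SE 0.21), Guk1, guanylate kinase (-1.07, SE 0.15), and Pfas (-1.02, SE 0.14) were lower in the first round.

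For genotype, SVZ knockouts and wild types lay together. Prps2 had 47.7, 44.3 and 53.9 RPKM in libraries labelled knockout and 45.2, 44.9 and 52.3 in those labelled wild type. Over the 9 enzymes the log2 differences ran from -0.19 to 0.21 and 0 passed limma, with 0 at an unadjusted p under 0.05, where 0.0122% of all genes were called. Without both libraries that went against their labels 0 passed too, and Prps2 had 0.17.

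In the hippocampus the genotype values took part in choosing Prps2 and are given as a description. In HC2 Prps2 had 39.3, 30.0, 37.6 and 40.5 RPKM in knockouts and 34.6, 21.7, 22.8 and 21.01 in wild types. The groups overlapped through wild type 2 and knockout 4, and the log2 difference was 0.56 (SE 0.14). In HC1 it had 32.9, 34.4 and 40.3 RPKM in male knockouts and 27.3, 27.8 and 21.8 in female wild types, without overlap (log2 0.48, SE 0.17). Prps2 is X-linked, and donor sex cannot be told apart from genotype there.

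All 9 enzymes had positive differences in HC1 (0.20 to 0.65, median 0.48) and in HC2 (0.23 to 1.36, median 0.56). The calls over all genes were 0.0122% in HC1, 0.0244% in HC2 and 0.0305% over the mean of both, with 0 of the 9 among them, and nothing is read from that count. All 30 of 30 proliferation markers had positive differences too (median 0.49 in HC1 and 1.12 in HC2), and markers of astrocytes and quiescent stem cells were positive in 1 of 10 in HC1 and 0 of 10 in HC2. Rrm2 had the largest in HC2 (1.36, SE 0.77), with 79.7, 16.6, 86.5 and 14.7 RPKM in knockouts and 105, 4.80, 4.70 and 11.7 in wild types. The highest of these 8 libraries was thus a wild type, and the groups overlapped widely. With the proliferation covariate the HC2 difference was below 0 for 7 of the 9 (-0.35 to -0.045), 0.06 for Rrm2 and 0.43 for Prps2. Leaving out 1 library at a time, Prps2 ran from 0.49 to 0.72 in HC2 and from 0.46 to 0.60 over the mean of both rounds. Both were highest without HC2 wild type 2, the most proliferative library of HC2 by Mki67. The covariate and left-out values of Prps2 come from comparisons it was chosen on, so nothing is read from them.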

How the data were processed

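Per the labels' protocols, ribosomal RNA was removed from neurosphere total RNA, and 20 stranded, exon-enriched libraries were read as pairs. The values the authors deposited are RPKM on a linear scale, as the file headers name them. Per the submitters' processing notes, FastQC 0.11.5 and DESeq2 were among the tools and the build was mm10 (GRCm38); the sources used here name no aligner, counter or use of strand. Blanks were read as 0. Genes were kept where 3 or more of the 20 libraries reached 0.5 RPKM (16403 of 36724, 44.7%). limma 3.58.1 in R 4.3.3 was fitted to log2(RPKM + 1) with 1 mean per group and 14 residual degrees of freedom (eBayes with trend and robust), and p-values were adjusted by Benjamini-Hochberg over all kept genes, threshold 0.05, two-sided. A log2 difference is on that scale and understates changes of low genes. Ratios used RPKM + 0.1 and were permuted within genotype. The fit was tested on simulated data. Within a group, mouse numbers in the labels differ between libraries.

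The members and gene lists were chosen with earlier results of these data known. Named genes are the members, their relatives, from each list up to 2 called genes per direction, by largest difference, where a group mean reached 1 RPKM, and the 5 genes most like Prps2, Rrm2 and Impdh2 at a mean of at least 5 RPKM. Promoters are RefSeq's (GRCm38.p6), and all 9 members matched. For Tk1 and Prps2 a gene on the other strand overlaps. Alternatives changed the pseudocount, filter, scaling, weights, samples and covariate. Python 3.11.15 was used for permutations. Some genes that this rule names are not reported here.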

Additional observations from a re-analysis of the deposited data

Results flagged for a closer look

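In the HC2 wild types, Prps2 was flagged because its highest library, wild type 2, stood apart from the other 3: its gap to the next was 0.838 of the group's range on the log2 scale, above the critical value for 4 libraries, at 34.6 RPKM. Impdh2 was flagged in the same library, with a gap of 0.85 of the range at 21.9 RPKM. This library also had the highest Mki67 of HC2, and the part of this in both values was not tested. In 18 groups looked at, chance flags about 1 in 20.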

How the results depend on the processing

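Of 1430 repeats of single results under alternatives, 1332 kept direction and side of the threshold. The SVZ against HC2 count stayed at 9 without any 1 library. With array weights the counts were 7 for SVZ against HC1 knockouts, 6 for HC1 against HC2 knockouts and 1 for the mean hippocampal genotype difference, Prps2 between the rounds was 0.03 and Tk1 by SVZ genotype -0.029. On the compared groups alone the SVZ against HC1 knockout count was 9. With the proliferation covariate the 3 counts were 5 (SVZ against HC2), 2 (SVZ against HC1 knockouts) and 5 (HC1 against HC2 knockouts). Signs then turned for Dut (-0.883) in the first, Rrm2 (-0.425) in the second, and Dut (-0.965) and Cad (-0.271) in the third. They also turned for Rrm2 by genotype in HC1 (-0.006), for Prps1 (-0.083), Rrm1 (-0.056), Tyms (-0.165), Tk1 (-0.045), Dut (-0.35), Cad (-0.141) and Impdh2 (-0.172) by genotype in HC2, and for Prps1 (-0.009), Dut (-0.117), Cad (-0.06) and Impdh2 (-0.046) over the hippocampal mean. Dut between the rounds was -0.037 with a pseudocount of 5 and -0.103 with median scaling. The cause of these changes was not tested, and the covariate did not overlap between SVZ and HC2 or between SVZ and HC1 knockouts.

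Leaving out 1 library at a time, the counts ran from 0 to 1 by genotype in HC2 and over the hippocampal mean (1 without HC2 wild type 2, on values that took part in choosing Prps2, so nothing is read from it), from 2 to 4 for HC1 against HC2 knockouts, and from 5 to 8 for Mki67. Between the rounds Prps2 ran from -0.127 to 0.024, Dut from -0.495 to 0.399 and Cad from -0.077 to 0.319. By SVZ genotype Prps2 ran from -0.041 to 0.103, Rrm1 from -0.004 to 0.093, Tk1 from -0.113 to 0.139, Dut from -0.235 to 0.08 and Impdh2 from -0.012 to 0.19. With the replicate number as a block the counts were 0 for SVZ against HC1 knockouts and 0 by genotype in SVZ and in HC1, with no call changed. Same-numbered libraries correlated at -0.259 to 0.007 after subtracting group means, so the numbers were not taken to pair them. The mouse numbers that recur between HC2 and a first-round group of the same genotype gave -0.25 to 0.236 over 6 pairs, and with the mouse number as a random block the counts were 9 for SVZ against HC2 and 3 for HC1 against HC2 knockouts, as without it. Depth is an estimate; the lowest value, 0.541 RPKM of Tk1, stood for about 81 reads.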
